A study of Mus musculus with 22 samples.

Results

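Heat shock proteins are the chaperones that keep other proteins folded, and 10 of their genes were followed here across peeled esophageal epithelium of control mice, mice with eosinophilic esophagitis (EoE) and mice with esophageal squamous cell carcinoma (ESCC). The genes were picked by name, as 10 of the 17541 genes listed in the single cell tables, and each had UMIs (unique molecular identifiers, counted as 1 captured RNA molecule each) in every group. The small heat shock protein gene *Hspb1* was about 8 times as high as in controls in both diseases (7.98-fold in EoE, 8.16-fold in ESCC). *Hspa8*, the constitutive HSP70, was higher in ESCC (6.89-fold), while its EoE value rested on 6 UMIs. The heat-inducible *Hspa1b* was higher in both diseases (1.80-fold and 1.82-fold), and *Hsp90aa1* and *Hspe1* were higher in ESCC. The *Hspe1* rise did not pass the test within basal cells alone.

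Cells were peeled epithelium of 13 C57BL6 mice, released by warm enzymatic digestion and profiled on the inDrop platform, which tags RNA at its 3' end in droplets. The 6 untreated controls comprised 3 young mice of 3 to 4 months and 3 old mice of 18 to 20 months. EoE-like inflammation was induced in 2 young mice of 6 to 8 weeks and 2 old mice of 19 to 20 months by MC903 on the ears together with ovalbumin for 12 days and ovalbumin by mouth until day 32. ESCC was induced in 3 mice of 8 to 10 months with the carcinogen 4NQO at 100 µg/mL in drinking water for 16 weeks, followed by 8 weeks without it. Treatment, age and library depth therefore could not be fully told apart, and no control mouse was of the age of the ESCC mice or of the young EoE mice.

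The tables held 1500 cells per condition. Within the authors' limits of 250 to 3500 genes and 100 to 9500 UMIs, and after 37 cells with non-epithelial markers were left out, 1493 control cells, 143 EoE cells and 1465 ESCC cells remained, with 1744511, 97975 and 5055322 UMIs. EoE mouse 11 kept 11 cells and 6245 UMIs. Levels are given as CPM, UMIs per 1000000 UMIs of a mouse on the genes tested. That total was multiplied by a TMM scaling factor, from 0.831 in ESCC mouse 8M to 1.57 in EoE mouse 11. Plain CPM, and levels in cells thinned to 500 UMIs, were not scaled in this way. A single UMI was worth 2.65 to 9.80 CPM in a control mouse, 24.8 to 106 CPM in an EoE mouse and 0.592 to 1.04 CPM in an ESCC mouse, so that low levels were read far less finely in EoE. The 2 libraries of a control or ESCC mouse shared 4 to 52 cell barcodes and were summed. Markers of the epithelium were at 50772 to 76322 summed CPM in controls, 108775 to 140594 in EoE and 35635 to 43857 in ESCC. The 16 immune markers were at 34.2 to 82.7 CPM in controls, at 0 UMIs in EoE and at 220 to 408 CPM in ESCC, and the part of such cells in the levels below was not tested.

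Chaperones bind unfolded stretches of other proteins and release them for another attempt at folding. HSP70 proteins do this with the help of J-domain partners, which deliver the client, and of nucleotide exchange factors, which reset the cycle. HSP90 proteins finish the folding of kinases and steroid receptors, small heat shock proteins hold unfolded proteins in a soluble state, and the HSP60 and HSP10 chaperonin does the folding inside mitochondria. When unfolded protein builds up, the transcription factor HSF1 binds repeats of the unit nGAAn, called heat shock elements, in front of many of these genes. In stratified squamous epithelium such as the esophageal lining, basal cells divide next to the basement membrane and superficial cells differentiate and are shed.

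Promoter sequences of 7 of the 10 genes were matched by symbol in the RefSeq table (GRCm38.p6). They are shown because HSF1 is the common regulator of the family, and capitals mark every match to GAANNTTC or TTCNNGAA, which are pairs of inverted units that read the same on both strands. Each stretch is the 250 bases before the annotated start, written 5′ to 3′ on the strand of the gene. *Hspa1a* lies on the minus strand (window chr17:34972157-34972406), as does *Hspa1b* (chr17:34959239-34959488), and *Hspb1* lies on the plus strand (chr5:135887669-135887918).
Hspa1a: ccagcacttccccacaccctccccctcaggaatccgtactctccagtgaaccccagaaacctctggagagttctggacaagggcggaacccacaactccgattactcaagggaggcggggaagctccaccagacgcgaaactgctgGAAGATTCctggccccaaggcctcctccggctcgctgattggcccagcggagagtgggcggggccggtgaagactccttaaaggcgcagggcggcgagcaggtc
Hspa1b: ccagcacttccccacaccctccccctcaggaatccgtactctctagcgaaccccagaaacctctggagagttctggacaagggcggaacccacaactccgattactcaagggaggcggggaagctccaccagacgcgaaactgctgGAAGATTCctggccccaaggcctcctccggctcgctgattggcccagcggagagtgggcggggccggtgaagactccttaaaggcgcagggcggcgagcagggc
Hspb1: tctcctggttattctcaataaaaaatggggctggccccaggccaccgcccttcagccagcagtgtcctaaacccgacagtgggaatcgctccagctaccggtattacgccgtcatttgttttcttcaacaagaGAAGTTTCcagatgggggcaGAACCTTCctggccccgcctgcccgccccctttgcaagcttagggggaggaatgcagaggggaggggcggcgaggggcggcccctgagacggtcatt

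*Hspa1a* and *Hspa1b* matched at 247 of these 250 bases, and each held 1 GAANNTTC, which began 104 bases before the start. *Hspb1* held 2, which began 117 and 97 bases before the start. GAANNTTC was found before the start in 6.69% of the 32851 promoter windows of 27025 genes, and TTCNNGAA in 7.17%, so a single match is common. A run of 3 alternating units (GAANNTTC followed by NNGAA, or on the other strand TTCNNGAA followed by NNTTC) was found in 0.466% of the windows. Among the 7 genes it was found before the start of *Hspe1* and in 1 of 2 *Hspd1* windows (chr1:55087933-55088182). These genes face away from each other and share 1 control region. The other *Hspd1* window (chr1:55088244-55088493), which lies before the annotated 5′ end of that gene, held none of the 3 patterns. The stretch of 30 bases at chr1:55088053-55088082, on the plus strand of GRCm38.p6, holds 2 overlapping matches, of which the first begins 89 bases before the *Hspe1* start and is marked by capitals together with the second.
Hspe1: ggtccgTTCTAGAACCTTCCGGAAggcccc

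A match describes letters and no binding was measured. This stretch also lies within an annotated exon of *Hspd1*. The *Hsph1* windows held TTCNNGAA once before the start, and those of *Dnajb1* held none of the 3 patterns before the start. Sequences for *Hspa8*, *Hsp90aa1* and *Hsp90ab1* were not analysed here.

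Among the 10 genes *Hspa8* has many annotated copies of its 3' end, *Hspe1* and *Hspb1* have a few or 1, and the other 7 have none, which bears on how many of their reads could be counted. Counts came from fragments near the 3' end of a transcript, so sharing was measured as the share of 31-base stretches that occur in no other annotated gene of GENCODE M21, once over the last 300 bases and once over the whole transcript. For *Hspa8* (chr9:40800984-40810087), 25.6% of the stretches in the last 300 bases were its own, and 10 processed pseudogenes, among them *Gm8355* and *Gm15459*, shared the rest. For *Hspe1* (chr1:55088132-55091307) the share was 37.8%, with 3 copies. *Hspb1* (chr5:135887919-135889563) had 69.6% of its own stretches and 1 copy, *Hsp25-ps1*. None of these 14 copies was a row of the deposited tables, so no UMI was assigned to a copy in them. Levels of *Hspa8*, *Hspe1* and *Hspb1* may therefore be too low by a share that is not known. Whether that share was the same in the 3 conditions was not tested.

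*Hspa1a* (chr17:34969190-34972156) and *Hspa1b* (chr17:34956436-34959238) are neighbours that encode nearly the same HSP70. Their last 300 bases were unique throughout, but only 34.6% and 32.0% of the whole transcripts were, so that many reads away from the 3' end could not be assigned to one of them. The antisense gene *Gm20481* overlaps *Hspa1a* over 2225 bases, and *Hspd1* (chr1:55077835-55088243) overlaps *Hspe1* over 112 bases on the other strand. *Hsp90aa1* (chr12:110690605-110702728), *Hsp90ab1* (chr17:45567775-45573271), *Hsph1* (chr5:149614287-149636376) and *Dnajb1* (chr8:83608193-83612653) had between 98.5% and 100% unique 3' ends.

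**Figure D1:**
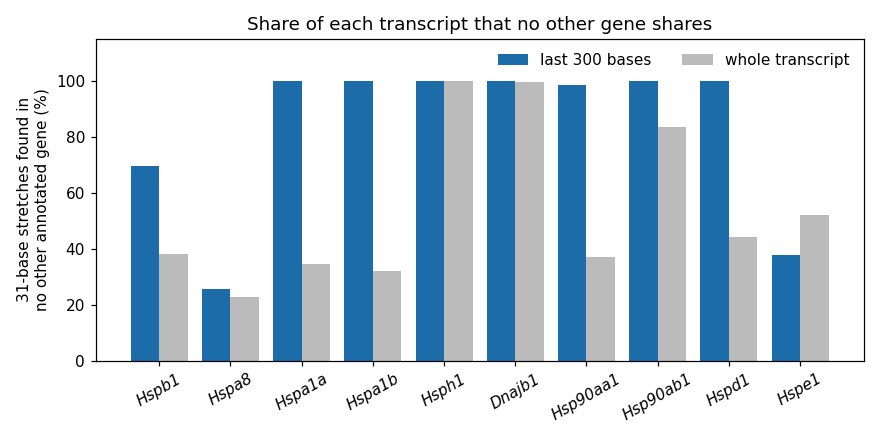
Share of 31-base stretches that occur in no other annotated gene, in percent, over the last 300 bases (blue) and the whole transcript (grey) of each of the 10 genes. *Hspa8* (25.6%) and *Hspe1* (37.8%) have the least unique 3' ends, and *Hspa1a* and *Hspa1b* are unique throughout at the 3' end but not over the whole transcript.

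The first comparison asked how each gene differed between the disease groups and controls, with the mouse as the replicate. UMIs were summed per mouse, levels are given as CPM after TMM scaling, and edgeR's quasi-likelihood test was adjusted by Benjamini-Hochberg over all 5863 genes tested. All 10 genes passed the filter on low counts. In such sums, more RNA per cell and more cells of one kind cannot be told apart. In EoE against control, 2 of the 10 genes rose and 3 fell, beside 9.5% of all genes tested called higher and 24.9% called lower (34.4% in all). In ESCC against control, 5 of the 10 rose and 0 fell, beside 17.9% of all genes called higher and 16.5% called lower (34.4% in all). The median log2 fold change of the 10 genes was 0.27 in EoE, where that of all genes was −0.74, and 0.51 in ESCC, where that of all genes was 0.01.

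**Figure D2:**
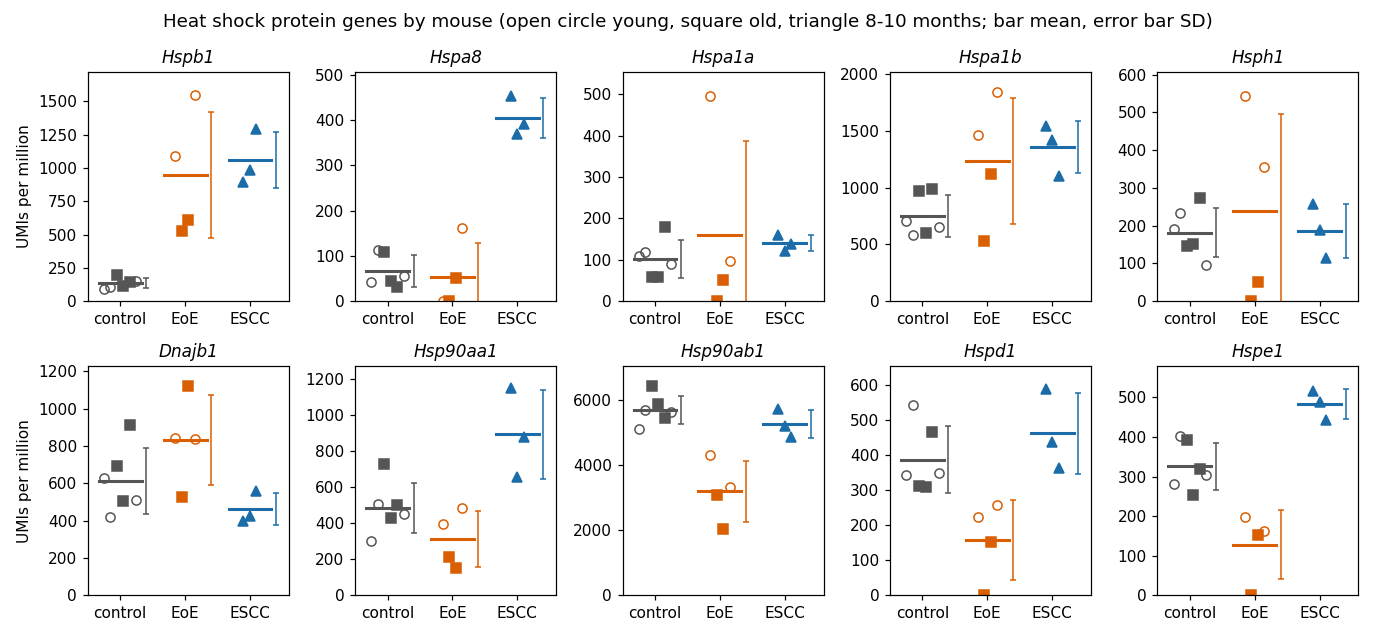
TMM-scaled CPM in each of the 13 mice for the 10 genes, by condition. Bars are group means and the lines beside them 1 SD, cut off at 0. In *Hspb1* all 4 EoE mice and all 3 ESCC mice lie above the 6 controls, and in *Hspa8* the 3 ESCC mice do.

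*Hspb1*, the small heat shock protein, ranged from 93.0 CPM over a median of 127 to 196 CPM in the 6 controls. It was at 1550.3 and 1089.6 CPM in the young EoE mice 9 and 10, and at 529.5 and 612 CPM in the old EoE mice 11 and 12. ESCC mice 8M, 17F and 17M had 1295, 892 and 984 CPM. Every EoE and ESCC mouse was above every control. The log2 fold change was 3.00 ± 0.27 (SE) in EoE (edgeR, adjusted p = 6.09e-10) and 3.03 ± 0.23 in ESCC (adjusted p = 2.8e-12). The difference between the diseases was 0.03 on the log2 scale, with a 95% interval from −0.52 to 0.59 and an adjusted p of 0.934. Within a class ESCC was above EoE, by 3.72 in basal cells (adjusted p = 0.000125), where EoE had 2 *Hspb1* UMIs, and by 0.74 in differentiated cells (adjusted p = 0.051). The basal value depended on the scale: without TMM, basal cells were at 694 ± 18.9 CPM in ESCC and 225 ± 341 CPM in EoE. With all deposited cells, most of them below the limits in EoE, the EoE change was 2.21 ± 0.30, and ESCC was then above EoE by 0.78 (adjusted p = 0.0305).

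*Hspa8* encodes the HSP70 that cells make without stress. The controls ranged from 31.2 over 49.9 to 114 CPM, from 8 to 22 UMIs a mouse. EoE mice 9 to 12 had 161, 0, 0 and 51 CPM, from 6 UMIs in all, and the 3 ESCC mice had 391, 454 and 369 CPM from 376 to 643 UMIs each. ESCC mice lay above every control, while EoE mice overlapped with them. The log2 fold change in ESCC was 2.79 ± 0.26 (adjusted p = 3.27e-10). In EoE it was 0.03 with a 95% interval from −1.47 to 1.54, and it moved to −2.08 without mouse 9, which held 5 of the 6 UMIs, and to 0.76 without mouse 10. No direction can be read for EoE at this depth. The 2 libraries of a mouse differed by a median of 0.49 and by up to 2.23 on the log2 scale for *Hspa8* over the 9 mice with 2 libraries.

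The inducible HSP70 genes come next. *Hspa1b* ranged from 584 over 679 to 986 CPM in controls and was at 1841, 1461, 529.5 and 1122 CPM in EoE mice 9 to 12. ESCC mice had 1103, 1546 and 1421 CPM. Of the EoE mice, 3 of 4 were above every control, and all ESCC mice were above. EoE mouse 11 was below every control, from 5 UMIs and after a TMM factor of 1.57. With all deposited cells mouse 11 was at 908 CPM, and 2 EoE mice were above every control and 0 below. The log2 fold change was 0.85 ± 0.25 in EoE (adjusted p = 0.0098) and 0.87 ± 0.23 in ESCC (adjusted p = 0.00321). The EoE call was lost without EoE mouse 9 (0.52, adjusted p = 0.208) or mouse 10 (0.80, adjusted p = 0.0546), and the ESCC call without mouse 17F (0.75, adjusted p = 0.0666).

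*Hspa1a* was read from far fewer UMIs. Controls ranged from 58.3 over 98.9 to 179 CPM, EoE mice had 96.9, 495, 0 and 51 CPM, and ESCC mice had 138, 161 and 121 CPM. The groups overlapped, and neither change passed the test (log2 1.14 ± 0.49, adjusted p = 0.0697 in EoE, and 0.43 ± 0.28, adjusted p = 0.232 in ESCC). Mouse 10 held 20 of the 24 EoE UMIs, and without it the EoE value was −0.63 (adjusted p = 0.579). The EoE change passed without control mouse 5 (adjusted p = 0.0319) or EoE mouse 12 (0.0464), and with only controls and EoE in the fit (0.0328). With the UMIs of the pair added up, because reads can be lost to either, the log2 fold change was 0.85 ± 0.25 in EoE (adjusted p = 0.0105) and 0.82 ± 0.23 in ESCC (adjusted p = 0.00654).

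The HSP70 partners did not pass the test in either disease. *Hsph1*, an HSP110 that acts as nucleotide exchange factor, ranged from 95.8 over 171 to 273 CPM in controls. It was at 355, 545, 0 and 51 CPM in EoE mice 9 to 12 and at 113, 258 and 188 CPM in ESCC mice, so that 2 EoE mice were above every control and 2 below. The log2 changes of *Hsph1* were 0.83 ± 0.44 in EoE (edgeR, adjusted p = 0.146) and 0.05 ± 0.27 in ESCC (adjusted p = 0.919). The EoE value was 0.10 without mouse 10, and it passed with only controls and EoE in the fit (0.98, adjusted p = 0.049). *Dnajb1*, the main J-domain partner of HSP70 under stress, ranged from 419 over 571 to 916 CPM in controls. EoE mice had 839.8, 842, 529.5 and 1122 CPM and ESCC mice 559.6, 401 and 426 CPM. The log2 changes of *Dnajb1* were 0.50 ± 0.26 in EoE (adjusted p = 0.13) and −0.40 ± 0.22 in ESCC (adjusted p = 0.152).

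**Figure D3:**
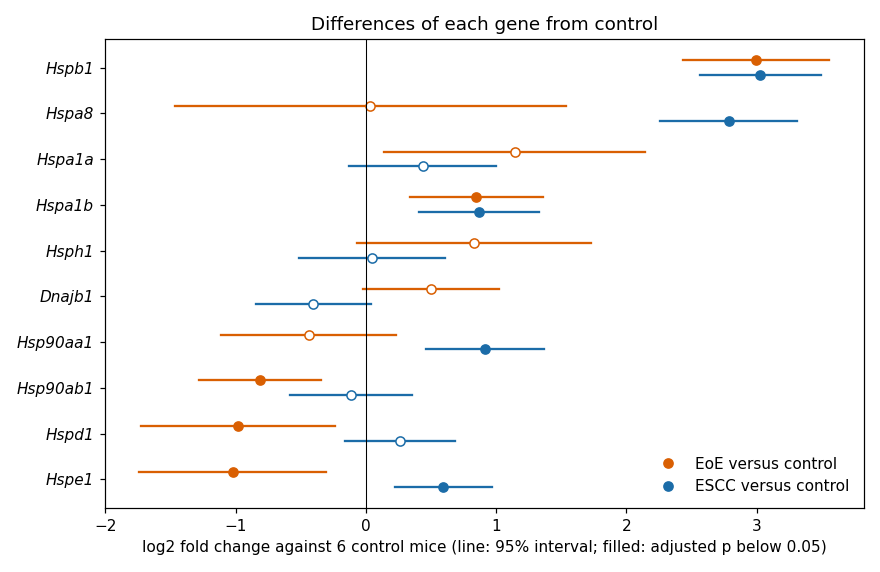
Log2 fold change of each gene against the 6 controls in EoE (orange) and ESCC (blue), with 95% intervals from the edgeR fit. Filled points passed an adjusted p of 0.05. *Hspb1* lies near 3 in both diseases, *Hspa8* is filled for ESCC and open for EoE, and *Hsp90ab1*, *Hspd1* and *Hspe1* lie below 0 in EoE.

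The cytosolic HSP90 pair held the gene with the highest level of the 10 in every group, *Hsp90ab1*. *Hsp90aa1*, the inducible form, ranged from 300.2 over 473 to 725 CPM in controls, was at 484, 396, 212 and 153 CPM in EoE mice and reached 875, 1148 and 656 CPM in ESCC mice. It rose in ESCC by 0.91 ± 0.22 on the log2 scale (adjusted p = 0.00172), with 2 of 3 mice above every control, and without mouse 17F the value was 0.68 with an adjusted p of 0.065. In EoE the change was −0.44 ± 0.33 (adjusted p = 0.309). *Hsp90ab1*, the constitutive form, ranged from 5107 over 5647 to 6407 CPM in controls and was at 3327, 4309, 3071 and 2039.8 CPM in the EoE mice, all below every control. It fell in EoE by 0.81 on the log2 scale, with an SE of 0.23 and an adjusted p of 0.00726, and without EoE mouse 12 the adjusted p was 0.0503. ESCC mice had 4859, 5699 and 5183 CPM and overlapped with the controls (−0.11 ± 0.23, adjusted p = 0.739). That overlap was on the TMM scale, where the factors of the ESCC mice were 0.831 to 0.878. Without TMM, all 3 ESCC mice were below every control within basal cells and within differentiated cells.

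The mitochondrial chaperonin pair was low in EoE. *Hspd1*, which encodes HSP60, ranged from 310.2 over 346 to 543 CPM in controls and was at 258, 223, 0 and 153 CPM in EoE mice, all below every control. *Hspe1*, its HSP10 lid, ranged from 255 over 312 to 403 CPM in controls and was at 161, 198, 0 and 153 CPM in EoE mice, again all below. The 0 of mouse 11 allowed up to 318 CPM in either gene, the worth of 3 UMIs. Log2 changes in EoE were −0.98 ± 0.37 for *Hspd1* (adjusted p = 0.0369) and −1.02 ± 0.35 for *Hspe1* (adjusted p = 0.0246). The *Hspe1* call was lost without any 1 of the 4 EoE mice (adjusted p of 0.0516 to 0.0587), and the *Hspd1* call without EoE mouse 10, 11 or 12 or control mouse 2 or 5 (0.0553 to 0.0961).

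These 3 decreases were close to what the median gene showed. Relative to the median of all genes tested in EoE, *Hsp90ab1* was at −0.07, *Hspd1* at −0.24 and *Hspe1* at −0.28 on the log2 scale, while *Hspb1* was at 3.74 and *Hspa1b* at 1.59. With RLE in place of TMM scaling the median of all genes in EoE was −0.97, and the same relative values were −0.08, −0.26, −0.30, 3.73 and 1.58. In ESCC the median was 0.12 with RLE, and *Hspa8* stood 2.77 above the median under either scaling.

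In ESCC, *Hspe1* reached 442, 516 and 489 CPM, above every control, and its log2 fold change was 0.59 ± 0.18 (adjusted p = 0.011). Without ESCC mouse 17F or 17M or control mouse 4 its adjusted p was 0.106, 0.0604 and 0.0627. With library 1 of each mouse only, the *Hspe1* change was 0.42 (adjusted p = 0.118), and it passed in 15 of 21 settings. *Hspd1* was at 363, 589 and 437 CPM in ESCC, and its change of 0.26 ± 0.21 did not pass (adjusted p = 0.351).

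The diseases were also compared with each other. In ESCC against EoE, 5 genes rose and 1 fell, where 30% of all genes tested were called higher, 11.7% lower and 41.7% either way. *Hspa8* (2.75 ± 0.56, adjusted p = 0.000292), *Hspe1* (1.62 ± 0.35, adjusted p = 0.000503), *Hsp90aa1* (1.35 ± 0.34, adjusted p = 0.00217), *Hspd1* (1.24 ± 0.37, adjusted p = 0.00904) and *Hsp90ab1* (0.70 ± 0.26, adjusted p = 0.031) were higher in ESCC on the log2 scale. *Dnajb1* was lower (−0.90 ± 0.28, adjusted p = 0.0121), a call that was lost with RLE scaling (−0.56, adjusted p = 0.0912) and without EoE mouse 9 or 12 or ESCC mouse 17F or 17M (adjusted p of 0.0588 to 0.116). The *Hsp90ab1* call was lost without EoE mouse 9, 11 or 12 or ESCC mouse 17F or 17M (adjusted p of 0.0545 to 0.139). The median gene was 0.80 higher in ESCC than in EoE, so *Hsp90ab1* differed by less than the median gene. The controls were shared by the comparisons with EoE and with ESCC.

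Basal and superficial cells make up different shares of these samples, so the genes were next compared between cell classes within the 6 control mice. A cell counted as a basal or differentiated marker cell when it had at least 3 UMIs on the basal and differentiated marker lists and at least 2/3 of them on 1 list, and no heat shock gene was on a list. The controls gave 899 basal and 454 differentiated marker cells, with 100 control cells within 5 percentage points of a limit. Each mouse gave both classes and was a block in the edgeR fit over 4368 genes. In differentiated cells 5 of the 10 genes rose and 4 fell, beside 21.4% of all genes called higher and 30.7% called lower (52.1% in all).

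*Hspb1* was the gene of the 10 with the largest rise, from a mean of 70.2 ± 48.5 CPM (SD, n = 6 mice) in basal to 249 ± 66.1 CPM in differentiated cells, higher in 6 of 6 mice (log2 1.98 ± 0.25, adjusted p = 7.13e-14). *Hspa1b* rose from 571 ± 112 to 1002 ± 224 CPM, also in 6 of 6 mice (0.83 ± 0.12, adjusted p = 8.22e-11). *Hsph1* rose from 131 ± 40.1 to 281 ± 118 CPM in 6 of 6 mice (1.00 ± 0.21). These are a small heat shock protein, an inducible HSP70 and its exchange factor. *Dnajb1* rose from 535 ± 221 to 749 ± 182 CPM and *Hspa1a* from 75.4 ± 20.5 to 136 ± 78.9 CPM, each in 5 of 6 mice (0.64 ± 0.13 and 0.93 ± 0.27). The *Hspa1a* call was lost with DESeq2 (adjusted p = 0.056).

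**Figure D4:**
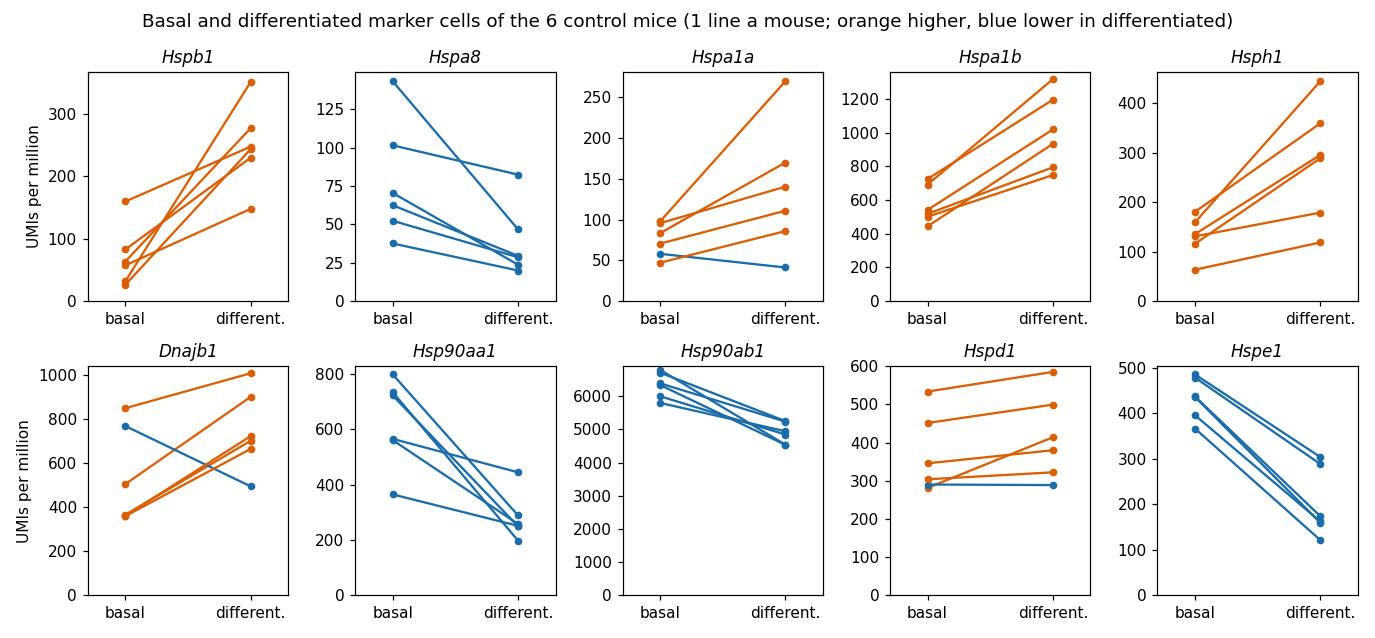
TMM-scaled CPM in basal and differentiated marker cells of each control mouse, joined by a line, orange where the differentiated cells were higher and blue where they were lower. *Hspb1*, *Hspa1b* and *Hsph1* are higher in differentiated cells of all 6 mice, and *Hspa8*, *Hsp90aa1*, *Hsp90ab1* and *Hspe1* are lower in all 6.

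The constitutive genes, *Hsp90aa1* and *Hspe1* went the other way. *Hsp90aa1* fell from 624 ± 159 CPM in basal to 282 ± 85.0 CPM in differentiated cells (log2 −1.16 ± 0.15, adjusted p = 3.74e-13), and *Hspe1* from 433 ± 46.2 to 202 ± 75.5 CPM (−1.25 ± 0.18, adjusted p = 1.78e-11), each lower in 6 of 6 mice. *Hsp90ab1* fell from 6334 ± 389 to 4889 ± 317 CPM in 6 of 6 mice (−0.36 ± 0.09, adjusted p = 0.000111). Without control mouse 4 or 5 its adjusted p was 0.068 or 0.0809. *Hspa8* was at 78.0 ± 38.5 and 38.5 ± 23.4 CPM, lower in 6 of 6 mice (−1.09 ± 0.42, adjusted p = 0.0223). It rested on 17 UMIs in differentiated cells, and the call was lost with DESeq2 (adjusted p = 0.159) and without control mouse 1, 2, 4, 5 or 6 (0.051 to 0.11). *Hspd1* did not pass, at 368 ± 102 and 415 ± 111 CPM (0.21 ± 0.15, adjusted p = 0.254).

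EoE samples held 26 basal and 82 differentiated marker cells and ESCC samples 1329 and 55, against 899 and 454 in controls, so the disease comparisons were repeated within a class. Levels in this paragraph and the next are plain CPM of the UMIs of the class, without TMM, while log2 changes come from the TMM fit. In basal cells *Hspb1* was at 63.8 ± 43.9 in controls and 694 ± 18.9 in ESCC, with all 3 ESCC mice above all controls (log2 3.91 ± 0.25, adjusted p = 4.71e-16). *Hspa8* was at 71.2 ± 36.2 and 330 ± 49.6 (2.57 ± 0.25, adjusted p = 8.04e-11), and *Hspa1b* at 518 ± 100.2 and 1059 ± 254 (1.32 ± 0.23, adjusted p = 1.49e-05), again without overlap. *Hsp90aa1* (0.68 ± 0.23, adjusted p = 0.0178) and *Hspa1a* (0.87 ± 0.24, adjusted p = 0.0041) also rose in ESCC basal cells by the TMM fit, but their plain CPM overlapped with controls. *Hsp90aa1* was at 336 to 723 in controls and 536 to 978 in ESCC, with 1 of 3 ESCC mice above every control. *Hspa1a* was at 41.3 to 88.9 in controls and 79.9 to 131 in ESCC, with 2 of 3 ESCC mice above every control. *Hspe1* did not pass there (0.32 ± 0.18, adjusted p = 0.167), with 394 ± 47.4 in controls and 403 ± 29.7 in ESCC. *Hsp90ab1* depended on the scale there: its plain CPM was 5748 ± 280 in controls and 4294 ± 398 in ESCC, all below, while the TMM fit gave −0.15 ± 0.26 (adjusted p = 0.697).

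In differentiated cells *Hspb1* was at 223 ± 65.3 in controls, 1236 ± 490 in EoE and 1710 ± 586 in ESCC, with every mouse of either disease above every control (EoE log2 2.51 ± 0.31, adjusted p = 2.49e-07, and ESCC 3.25 ± 0.28, adjusted p = 1.63e-10). *Hsp90aa1* was at 253 ± 85.8 in controls and 562 ± 78.7 in ESCC (1.46 ± 0.26, adjusted p = 5.89e-05). *Hspa1b* was at 898 ± 241, 1383 ± 273 and 1288 ± 294, and passed in ESCC (0.76 ± 0.25, adjusted p = 0.0191) but not in EoE (0.56 ± 0.25, adjusted p = 0.0667). *Hspd1* was lower in EoE differentiated cells, at 132 ± 109 against 369 ± 102 (−1.11 ± 0.42, adjusted p = 0.028), as was *Hsp90ab1* (−0.60 ± 0.24, adjusted p = 0.0349), while *Hspe1* did not pass (−0.26 ± 0.51, adjusted p = 0.69). *Hsp90ab1* in ESCC depended on the scale here too. Its plain CPM was 3542 ± 80.3 against 4343 ± 220 in controls, all below, while the TMM fit gave −0.09 ± 0.25 (adjusted p = 0.825). *Hspa8* was too low to be tested in this class. ESCC mice 17F and 17M gave 9 and 7 differentiated cells, and the 26 basal cells of EoE mice held 12 *Hspa1b* and 2 *Hspb1* UMIs.

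**Figure D5:**
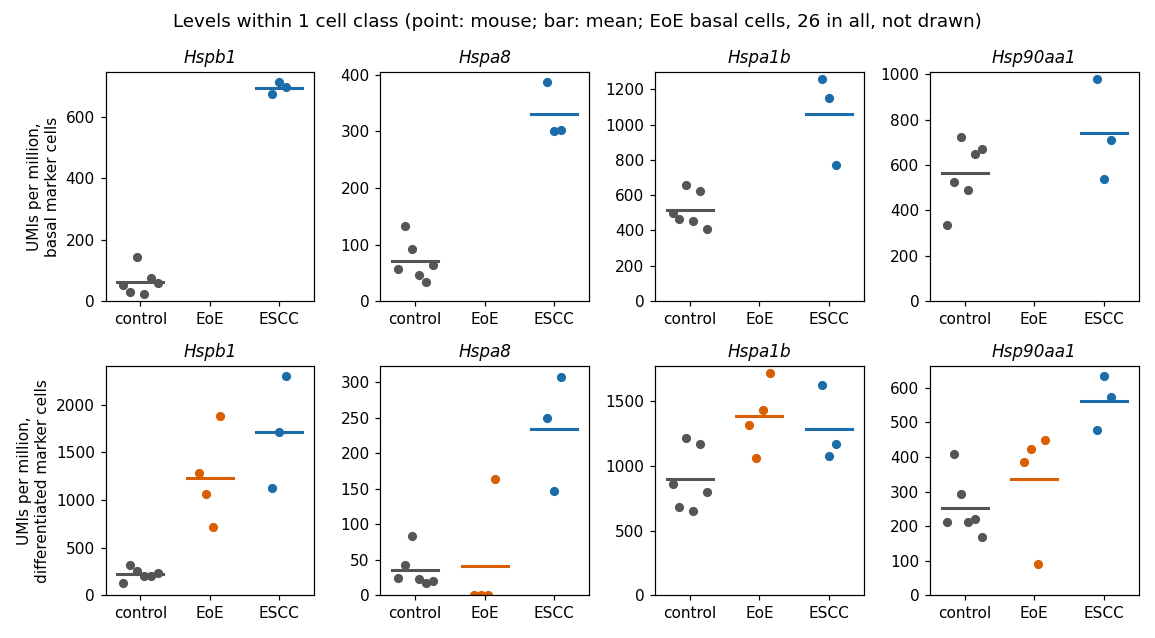
Plain CPM, without TMM scaling, within basal (top) and differentiated (bottom) marker cells for *Hspb1*, *Hspa8*, *Hspa1b* and *Hsp90aa1*, with 1 point per mouse and a bar at the mean. The 3 ESCC mice lie above all controls for *Hspb1* and *Hspa8* in both classes, and the 4 EoE mice do for *Hspb1* in differentiated cells. *Hspa8* was too low to be tested in differentiated cells, where ESCC mouse 17M had 3 UMIs.

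Age was compared within the controls. None of the 10 genes passed between 3 old and 3 young controls (edgeR), beside 0.0971% of the 5149 genes tested (0.0777% higher and 0.0194% lower). Of the 10, 0 had an unadjusted p under 0.05, and DESeq2 also called 0. *Hspb1* was at 150.1 ± 41.8 CPM in old and 119 ± 31.7 CPM in young controls, and *Hspa1b* at 852 ± 219 and 647 ± 60.1 CPM. The widest log2 difference was that of *Dnajb1*, 0.41 with a 95% interval from −0.09 to 0.92.

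Whether the EoE effect differed with age was tested as an interaction over 4198 genes, where 0.0476% were called, 0% higher and 0.0476% lower. By edgeR 0 of the 10 genes passed, 5 had an unadjusted p under 0.05, as did 330 of the 4198 genes, and DESeq2 called 0. *Hsph1* came closest. The young EoE mice were at 355 and 545 CPM against 95.8 to 233 CPM in young controls, and the old EoE mice at 0 and 51 CPM against 147 to 273 CPM in old controls. The EoE effect of old minus that of young mice was −4.14 ± 1.10 on the log2 scale, with an adjusted p of 0.221. Without control mouse 3 or EoE mouse 9 the adjusted p was 0.0178 or 0.0338, the latter with mouse 10 alone as the young EoE arm and its spread taken from the other groups. The old EoE arm held 1 UMI of *Hsph1* in all.

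Companion genes of the chaperone network were read from lists chosen by function. Of the TRiC chaperonin, the cytosolic machine that folds actin and tubulin, 8 of 8 subunits fell in EoE, from 2962 to 3797 summed CPM in controls to 212 to 1357 CPM in EoE. The median log2 change of the list was −1.65, where that of all genes was −0.74. *Cct3* changed by −3.72 ± 0.55 and *Cct6a* by −2.03 ± 0.33. These values rested on 3 and 16 EoE UMIs, so the size of the *Cct3* change is poorly known. In ESCC only *Tcp1* of the 8 passed (−0.88 ± 0.20), and 7 did not. Of 9 tested mitochondrial chaperones and proteases, 3 fell and 1 rose in EoE, with *Hspa9*, the mitochondrial HSP70, at −1.58 ± 0.35 from 13 EoE UMIs. *Trap1*, the mitochondrial HSP90 and another of the 3, had 0 UMIs in EoE against 86 in controls, so that it was at least 1.61-fold lower by the limit of 3 UMIs over the group. The median of the list was −0.95, and these counts stand beside 24.9% of all genes called lower and 9.5% higher. In ESCC 2 of the 9 rose, *Phb2* (0.98 ± 0.18) and *Grpel2* (0.82 ± 0.29), and 1 fell, *Clpx* (−0.68 ± 0.20). Of all genes tested, 17.9% were called higher and 16.5% lower in ESCC.

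Of 23 tested cochaperones and HSF1 network genes, 4 rose and 2 fell in EoE, and 8 rose and 2 fell in ESCC, with medians of −0.36 and 0.10. Of all genes tested, 9.5% were called higher and 24.9% lower in EoE, and 17.9% and 16.5% in ESCC. *Dnajb6*, an HSP40 that holds aggregating proteins, rose in EoE by 2.00 ± 0.53 on the log2 scale, from 14 EoE UMIs, and in ESCC by 0.86 ± 0.27. *Ptges3*, the HSP90 partner p23, rose by 1.61 ± 0.32 and 0.67 ± 0.22, and *Ahsa1*, which speeds the HSP90 cycle, rose in ESCC by 0.87 ± 0.24. *Bag1*, an exchange factor of HSP70, changed by −1.54 ± 0.42 in EoE, from 8 EoE UMIs, and by −0.57 ± 0.18 in ESCC. *Hsf1* itself had 66 UMIs over the controls and 0 in EoE, where the limit of 3 UMIs over the group bounds it only as at least 1.24-fold lower. It had 182 UMIs in ESCC, where it did not pass (0.10 ± 0.30, adjusted p = 0.83).

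Of 14 tested endoplasmic reticulum chaperones, 5 fell and 1 rose in EoE, beside 24.9% and 9.5% of all genes. Among the 5 were *Pdia6* (−2.52 ± 0.43, from 8 EoE UMIs) and *P4hb* (−1.05 ± 0.27), 2 protein disulfide isomerases. The list's median of −0.72 was near that of all genes. In ESCC 1 fell, *Pdia3* (−0.70 ± 0.18), and 13 did not pass, beside 16.5% of all genes called lower and 17.9% higher. In differentiated against basal cells of controls, 5 of these 14 rose and 0 fell, beside 21.4% and 30.7% of all genes, with *Xbp1*, a transcription factor of the secretory pathway, at 1.58 ± 0.20 and *P4hb* at 1.33 ± 0.11.

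Immediate early genes, which many tissues switch on within minutes of a stimulus, including handling, were counted beside the heat shock genes. They summed to 17987 to 26604 CPM in controls, 7837 to 12902 CPM in EoE and 7161 to 12110 CPM in ESCC. Of 14 tested, 9 fell and 1 rose in EoE (*Dusp1* −3.89 ± 0.34, *Junb* −2.78 ± 0.32), and 12 fell and 1 rose in ESCC (*Egr1* −2.09 ± 0.25, *Fosb* −1.96 ± 0.28). Of all genes tested, 24.9% were called lower and 9.5% higher in EoE, and 16.5% and 17.9% in ESCC. The medians of the list were −1.16 and −1.10, where those of all genes were −0.74 and 0.01. This group was thus lower in both diseases while *Hspb1* and *Hspa1b* were higher, and its part in the heat shock levels was not tested. In differentiated cells of controls 9 of the 14 were lower and 2 higher, beside 30.7% and 21.4% of all genes.

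Some genes followed a member from mouse to mouse. Over the 9 control and ESCC mice, with the mean of each group taken off the log2 CPM, the deviations of *Hspa8* were most like those of *Srsf3* (Pearson r = 0.978), *Eif3d* (0.917), *Ywhaq* (0.9001), *Ostc* (0.8998) and *Ss18* (0.897) among 2365 other genes. Those of *Hsp90aa1* were most like *Tpr* (r = 0.995), *Prrc2c* (0.939), *Ptges3* (0.915), *Anp32b* (0.910) and *Kmt2e* (0.903). Those of *Hspa1a* were most like *Rangap1* (r = 0.936), *Cyfip1* (0.927), *Leprotl1* (0.899), *Ezr* (0.896) and *Bag3* (0.886), with *Hspa1b* at 0.208. These mice share depth within a library pair and the leading r values were picked from many genes, so they are a description only.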

How the data were processed

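Deposited UMI counts per gene and cell from 22 libraries of 13 mice were used. Per the submitters' processing notes and the study's methods, the authors extracted barcodes with UMI-tools 1.0.0, aligned reads with STAR 2.7.3 to GRCm38 (GENCODE M23), assigned them with featureCounts and deposited 1500 cells per condition. Whether reads with several alignments were counted, and whether strand was used, is not given in the sources used here, so overlapping genes on opposite strands cannot be told apart. Counts were summed per mouse and tested with edgeR 4.0.16 (quasi-likelihood, TMM, filterByExpr, R 4.3.3), adjusted p under 0.05. DESeq2 1.42.0 was an alternative. Mice are the replicates. The fitting code was tested on simulated data. Folds and 95% intervals come from the fit, and limits for 0 UMIs (3 counts) cover counting error only. Doublets were not called. All 10 genes are named. Companion genes were named from the up to 4 called genes of a list with the largest change in a comparison and a mean log2 CPM of at least 5. Not all of these were named, and for some the value in the other disease was added. Of genes most like a member, the 5 with the highest r and a mean log2 CPM of at least 6 are named. The 10 genes and all lists were chosen with earlier results of these data known. Copies were searched in GENCODE M21 transcripts.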

Additional observations from a re-analysis of the deposited data

How the results depend on the processing

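The number of the 10 genes called in EoE against control was 5, and it was 3 in basal cells, 3 in differentiated cells and 0 when every mouse was thinned to 6245 UMIs, where 1 of the 10 could be tested. It was 2 to 5 when 1 mouse was left out. With only controls and EoE in the fit it stayed at 5, but as 4 higher and 1 lower. With all deposited cells and without EoE mouse 11, an alternative chosen after the data were seen, it was 3. Of the 3 genes called in basal cells, *Hsp90ab1* depended on the scale. The TMM fit gave −2.24 ± 0.33, while plain CPM was 5333 ± 4313 in EoE and 5748 ± 280 in controls. In ESCC against control the number was 5, 0 after thinning, and 2 to 5 with 1 mouse left out, the 2 being *Hspa8* and *Hspb1* without mouse 17F. In ESCC against EoE it was 6, 0 after thinning, 1 in differentiated cells and 4 to 6 with 1 mouse left out. For the age interaction it was 0 to 1 with 1 mouse left out. Between cell classes it was 9, with 7 to 8 when 1 mouse was left out.

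Direction turned for 2 called values, both in the 26 EoE basal cells: *Hspa1b* in EoE against control (−0.46) and *Dnajb1* in ESCC against EoE (0.95). Both turns came from the TMM fit and were not seen in plain CPM. There *Hspa1b* was at 698 ± 815 in EoE and 518 ± 100.2 in controls, and *Dnajb1* at 643 ± 873 in EoE and 353 ± 38.5 in ESCC. *Hspb1* in EoE did not pass in the EoE basal cells (0.19, adjusted p = 0.909) and passed in the other 19 settings. Its plain CPM in basal cells was 225 ± 341 in EoE and 63.8 ± 43.9 in controls. *Hspb1* in ESCC passed in 21 of 21 settings (2.74 to 3.91) and *Hspa8* in 20 of 20 (2.52 to 3.01). Settings with library 1 or 2 of each mouse only, and with 2 groups in the basal fit, were also added after the data were seen. No paired analysis was possible because the groups share no replicate numbers.

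Over all genes tested, the number called in EoE against control was 2017, from 105 after thinning to 3030 with all deposited cells. In ESCC against control it was 2018, from 60 after thinning to 2725 without a filter on low counts. In ESCC against EoE it was 2445, from 114 after thinning to 3375 with all deposited cells. Between cell classes it was 2275, with 1413 when mice were not a term, and between ages it was 5, from 0 to 24.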

Other observations

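*Hspb1* and *Hspa1b* both rose in both diseases and both were higher in differentiated cells of controls, so their UMIs were looked for in the same cells, a comparison chosen after the data were seen. Each of 1458 control cells with at least 500 UMIs was thinned to 500 UMIs, which left out 35 control cells. In the 356 cells with an *Hspa1b* UMI, *Hspb1* had 7 UMIs (30.9 ± 24.8 CPM, SD over n = 6 mice), and in the 1102 cells without one it had 59 UMIs (122 ± 40.4 CPM). *Hspb1* was lower in the *Hspa1b* cells of 6 of 6 mice. The exact sign-flip permutation test over mice (two-sided) gave p = 0.03125, the smallest that 6 mice allow, and adjusted over the 9 other genes it was 0.281. With 6 mice a single gene among 9 cannot pass that correction, so this says nothing for or against a difference. Within differentiated marker cells the values were 4 UMIs (41.2 ± 50.9 CPM) in 148 cells and 38 UMIs (299 ± 111 CPM) in 300 cells, with *Hspb1* again lower in 6 of 6 mice. Within basal marker cells they were 2 and 17 UMIs, lower in 5 of 6 mice (exact permutation p = 0.0938). Over all cells used, the order was the opposite in each ESCC mouse and in EoE mice 9, 11 and 12. In ESCC, over all cells used, *Hspb1* was at 641 CPM in cells with and 628 CPM in cells without an *Hspa1b* UMI in mouse 17F, at 745 and 595 CPM in 17M and at 1121 and 796 CPM in 8M. Within ESCC basal marker cells it was at 606 and 566 CPM in 17F and 688 and 541 CPM in 17M, but at 533 and 648 CPM in 8M. EoE mouse 10 had the order of the controls, with 617 CPM in 13 cells with an *Hspa1b* UMI and 1647 CPM in 17 cells without. The values were 2141 CPM in 15 cells and 1429 CPM in 7 cells of mouse 9. They were 1336 CPM in 3 cells and 1000 CPM in 4 cells of mouse 11, from 2 UMIs each. In mouse 12 they were 1336 CPM in 6 cells and 222 CPM in 9 cells, from 4 UMIs and 1 UMI. The difference between the groups was not tested.

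*Hspa1a*, whose promoter matches that of *Hspa1b* at nearly every base, had 21 UMIs in the *Hspa1b* cells and 58 in the others (110 ± 77.8 and 118 ± 60.5 CPM), and was higher in the *Hspa1b* cells of 4 of 6 mice. The widest gaps between the 2 libraries of 1 mouse, on the log2 scale, were 0.29 for *Hsp90ab1*, 0.44 for *Hspa1b*, 1.45 for *Hspb1* and 2.23 for *Hspa8*. None of the 10 genes had a control or EoE mouse set far apart from the rest of its group by Dixon's criterion, in 20 groups examined. With 4 EoE mice the criterion flags only an extreme gap. EoE mouse 10, with 20 of the 24 EoE UMIs of *Hspa1a*, was not flagged.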
